A study of Mus musculus with 13 samples.

Results

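The Gata genes encode the 6 GATA transcription factors of the mouse, Gata1 to Gata6, and were taken by name from the GENCODE vM1 annotation of the mm9 genome, where they are 6 of 22367 protein-coding genes. Gata1 lies at chrX:7536386-7555197 on the minus strand, Gata2 at chr6:88143885-88157024 on the plus strand and Gata3 at chr2:9778705-9811661 on the minus strand. Gata4 lies at chr14:63817759-63890529 on the minus strand, Gata5 at chr2:180059838-180069404 on the minus strand and Gata6 at chr18:11052508-11085633 on the plus strand. The study mapped AEBP2, an accessory subunit of the Polycomb repressive complex PRC2, by ChIP-seq in mouse embryonic stem cells (ESCs), and compared it with H3K27me3, the histone mark that PRC2 makes. In ChIP-seq, chromatin fragments bound by an antibody are sequenced, and genomic stretches with an excess of them are listed as peaks. All samples used here carry the label wild-type, strain 129/1 and the male line 129/1 XY ES cell line. Endogenous AEBP2 was pulled down with an antibody raised in the study and has 2 replicate lists of peaks. H3K27 was pulled down with a commercial antibody and also has 2 replicate lists, whose labels give no methylation state, and the name H3K27me3 is the paper's. FS2-AEBP2, which is AEBP2 with a Flag-StrepII tag at its N terminus expressed from a plasmid, was pulled down through the tag by a different ChIP protocol and has 1 list and no replicate. The paper's methods name E14 cells for expression of the tagged protein, whereas its label names the same line as the others. The replicate numbers in the names of the H3K27me3 files appear swapped relative to the sample records. The records were followed here, which leaves the numbering of these replicates uncertain. Whether replicates came from separate cultures is not stated.

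GATA factors bind DNA through zinc fingers and direct the choice of cell fate. Gata1, Gata2 and Gata3 are best known from blood, where Gata1 drives red cell and megakaryocyte maturation, Gata2 maintains stem and progenitor cells and Gata3 sets T cell identity, with Gata2 and Gata3 also acting in trophoblast. Gata4, Gata5 and Gata6 act in the heart and in endoderm, and Gata6 specifies the primitive endoderm of the early embryo. Many genes for such lineage factors are held by Polycomb complexes at CpG-rich promoters. Peak lists hold no expression values, so no statement on the RNA of any gene is made here.

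The Gata genes Gata2 to Gata6, 5 of the 6, carried peaks of AEBP2, FS2-AEBP2 and H3K27me3, and Gata1 carried none. A promoter was taken as 1 kb on either side of a start site, and a gene counted as occupied in a list where at least 1 bp of a peak fell in that window. Using the outermost annotated start of each gene, the start of the gene record, AEBP2 replicate 1 had a peak at 4 Gata genes against 9.08% of all protein-coding genes, and AEBP2 replicate 2 at 5 against 22.3%. FS2-AEBP2 had a peak at 4 against 6.53%. H3K27me3 had a peak at 5 in replicate 1 against 17.0% and at 5 in replicate 2 against 17.7%. Both AEBP2 replicates marked 4 Gata genes against 8.44% of all genes, both H3K27me3 replicates marked 5 against 15.0%, and all 5 lists marked 4 against 4.57%. These 4 were Gata2, Gata3, Gata5 and Gata6.

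Gata4 entered once every annotated transcript start was used, since its CpG-rich promoter lies 26421 bp inside the gene record. By this count the same 5 genes, Gata2 to Gata6, had a peak in each of the 5 lists. The shares over all protein-coding genes were then 9.90% and 24.0% for the AEBP2 replicates, 7.15% for FS2-AEBP2, and 18.5% and 19.3% for the H3K27me3 replicates. They were 9.24% for both AEBP2 replicates, 16.2% for both H3K27me3 replicates and 5.02% for all 5 lists. The Gata genes were chosen by name with earlier results of these data known, so the counts describe the family and no test of them was made.

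The number of reads behind each list is unknown, and the lists differ in size. They hold between 2877 and 6779 AEBP2 or FS2-AEBP2 peaks and 9275 to 14112 H3K27me3 peaks. Each peak has a whole-number score whose scale is not stated, so a score is given here only with its rank, the percent of the peaks of its own list with a lower score. A further 8 genes, markers of ESCs, were examined. A lack of peaks there cannot check the cell type label. At any annotated start, each list had peaks at 24.0% or fewer of all protein-coding genes. Pou5f1, Nanog, Sox2, Zfp42, Tdgf1 and Dppa5a had no peak in any list at any annotated start. Klf4 had a peak in FS2-AEBP2 and in H3K27me3 replicate 1, and Esrrb had peaks in all 5 lists at an inner start only.

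The 22 annotated transcripts of the 6 genes start at 16 promoters, when starts within 500 bp are joined. A peak in all 5 lists was found at 10 of them, 4 had none, and 2 had peaks in 3 lists. The 250 bases upstream of the start are shown here for 5 promoters, chosen to span the range of CG dinucleotide content. The sequences are from mm9, run 5′ to 3′ on the strand of the gene and end at the base before the start site, with each CG in capitals. The Gata1 promoter is that of Gata1-001, at chrX:7545037-7545286 on the minus strand, and had no peak. The Gata4 distal promoter is that of Gata4-006, at chr14:63890530-63890779 on the minus strand, with peaks in 3 lists. The Gata4 proximal promoter is that of Gata4-001, at chr14:63864109-63864358 on the minus strand. The Gata2 promoter is the inner one of that gene, at chr6:88148408-88148657 on the plus strand, and the Gata5 promoter is at chr2:180069405-180069654 on the minus strand. The last 3 promoters had peaks in all 5 lists. None of these stretches overlaps an annotated exon of its own gene.
Gata1 promoter: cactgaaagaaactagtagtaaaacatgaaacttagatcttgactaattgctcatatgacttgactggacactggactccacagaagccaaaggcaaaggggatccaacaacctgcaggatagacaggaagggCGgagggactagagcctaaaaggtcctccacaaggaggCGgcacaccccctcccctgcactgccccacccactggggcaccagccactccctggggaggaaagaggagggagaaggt
Gata4 distal promoter: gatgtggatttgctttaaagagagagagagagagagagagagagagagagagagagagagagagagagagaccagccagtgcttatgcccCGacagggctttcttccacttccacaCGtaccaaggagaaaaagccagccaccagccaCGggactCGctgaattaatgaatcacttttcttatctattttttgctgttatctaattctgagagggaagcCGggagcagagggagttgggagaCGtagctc
Gata4 proximal promoter: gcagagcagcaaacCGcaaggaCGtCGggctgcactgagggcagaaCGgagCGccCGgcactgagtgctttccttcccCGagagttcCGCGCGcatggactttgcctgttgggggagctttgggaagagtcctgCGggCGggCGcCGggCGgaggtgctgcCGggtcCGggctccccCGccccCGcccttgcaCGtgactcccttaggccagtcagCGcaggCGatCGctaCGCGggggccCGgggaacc
Gata2 promoter: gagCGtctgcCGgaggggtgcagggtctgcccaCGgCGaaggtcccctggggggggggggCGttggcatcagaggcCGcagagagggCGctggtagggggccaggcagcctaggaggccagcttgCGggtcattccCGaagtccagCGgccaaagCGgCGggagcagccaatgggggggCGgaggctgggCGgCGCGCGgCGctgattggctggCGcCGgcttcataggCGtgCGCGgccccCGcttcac
Gata5 promoter: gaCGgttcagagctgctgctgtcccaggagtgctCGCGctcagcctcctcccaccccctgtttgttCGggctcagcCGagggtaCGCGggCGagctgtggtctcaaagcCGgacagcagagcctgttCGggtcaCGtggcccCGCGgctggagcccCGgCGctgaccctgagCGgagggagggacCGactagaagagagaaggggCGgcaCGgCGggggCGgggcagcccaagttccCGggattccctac

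The Gata1 promoter shown holds 2 CG dinucleotides and the Gata4 distal promoter holds 6. The Gata4 proximal, Gata2 and Gata5 promoters hold 26, 24 and 22. These stretches do not stand for all: over the 10 promoters with peaks in all 5 lists the number ran from 1 to 26, and 4 of them, all of Gata3, held 6, 3, 1 and 2. The 4 promoters without a peak held 2 to 7, so that the ranges overlapped. Over the gene record starts of all protein-coding genes the median was 8, with 25th and 75th percentiles of 3 and 18, and over genes with H3K27me3 peaks in both replicates the median was 14. The letters AGATAA or TGATAA, on either strand, are core forms of the site that GATA factors bind. They occurred at 2 places in the Gata4 distal promoter and at 1 in the promoter of Gata1-003, in none of the other 14, and in 15.5% of the promoters of all protein-coding genes.

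Counted over 1 kb on either side of the start, the 3 Gata1 promoters held 26, 34 and 15 CG dinucleotides. The Gata4 promoter without a peak, that of Gata4-003, held 20, and the 2 distal Gata4 promoters with peaks in 3 lists held 27 and 28. The 10 promoters with peaks in all 5 lists held between 23 and 135, with Gata5 at the top. The lowest were inner starts of Gata3, at 23 and 37. In AEBP2 replicate 2 and both H3K27me3 replicates they lie inside a single peak that also covers the other starts of the gene, and in AEBP2 replicate 1 the first lies in a peak that covers no other start and the second lies just outside the peak in its window. The ranges of occupied and unoccupied promoters thus overlapped. The overlap was within 23 to 34 CG dinucleotides, and the start sites share peaks and are not independent of each other.

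**Figure D1:**
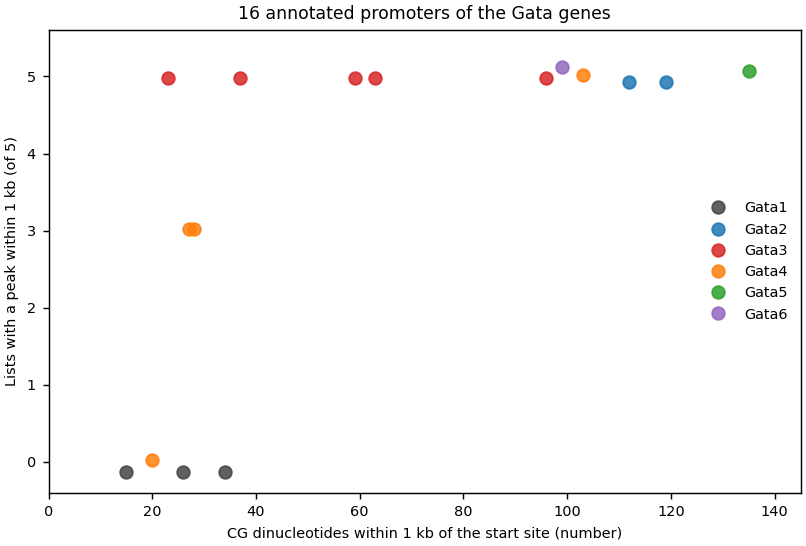
The number of CG dinucleotides within 1 kb of the start site (horizontal axis) against the number of the 5 lists with a peak in the same window (vertical axis), 1 point for each of the 16 promoters, coloured by gene and shifted slightly up or down by gene. Promoters above 37 CG dinucleotides all had peaks in 5 lists, and those of Gata1 lie at 0 lists between 15 and 34.

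CpG-island-like regions, defined by sequence alone, as 500 bp windows with GC from 55% upwards and CpG at 0.65 or more of its expected number, merged where they meet, numbered 22 within the Gata genes and 10 kb on either side. Gata2 had 4, Gata3 had 7, Gata4 had 6, Gata5 had 1, Gata6 had 4 and Gata1 had none. Both H3K27me3 replicates had a peak at all 22, AEBP2 replicate 2 and FS2-AEBP2 at 21 each, and AEBP2 replicate 1 at 17. Any overlap counted, down to 6.19% of a region in FS2-AEBP2, and regions of a gene often share a peak. The share over all 20675 such regions of the genome is not given here, so these counts have no background. The region left out by all 3 AEBP2 lists lies 15159 to 16408 bp inside Gata4. Among the 12312 protein-coding genes with such a region in the window of the gene record start, 8.04% had peaks in all 5 lists, and among the 10055 genes without one 0.328% did. AEBP2 was found in both replicates at 14.9% and 0.497% of these genes, and H3K27me3 at 23.4% and 4.65%.

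Gata1 was the only member with no peak. None of the 5 lists had a peak in its 18812 bp or within 50 kb on either side. The nearest peak was 167229 bp away in FS2-AEBP2, 317892 bp and 640927 bp away in H3K27me3 replicates 1 and 2, and 914629 bp and 4109786 bp away in AEBP2 replicates 2 and 1. The nearest protein-coding genes on either side, Hdac6, a deacetylase gene whose promoter holds a CpG-island-like region, and Glod5, had no peak in any list either. Gata1 is the X-linked member. Of the 932 protein-coding genes on the X chromosome, 3.43% had AEBP2 peaks in both replicates, 8.15% had H3K27me3 peaks in both and 1.61% had peaks in all 5 lists, each below the share over all genes. With no read counts, a weak enrichment at Gata1 cannot be told apart from none.

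**Figure D2:**
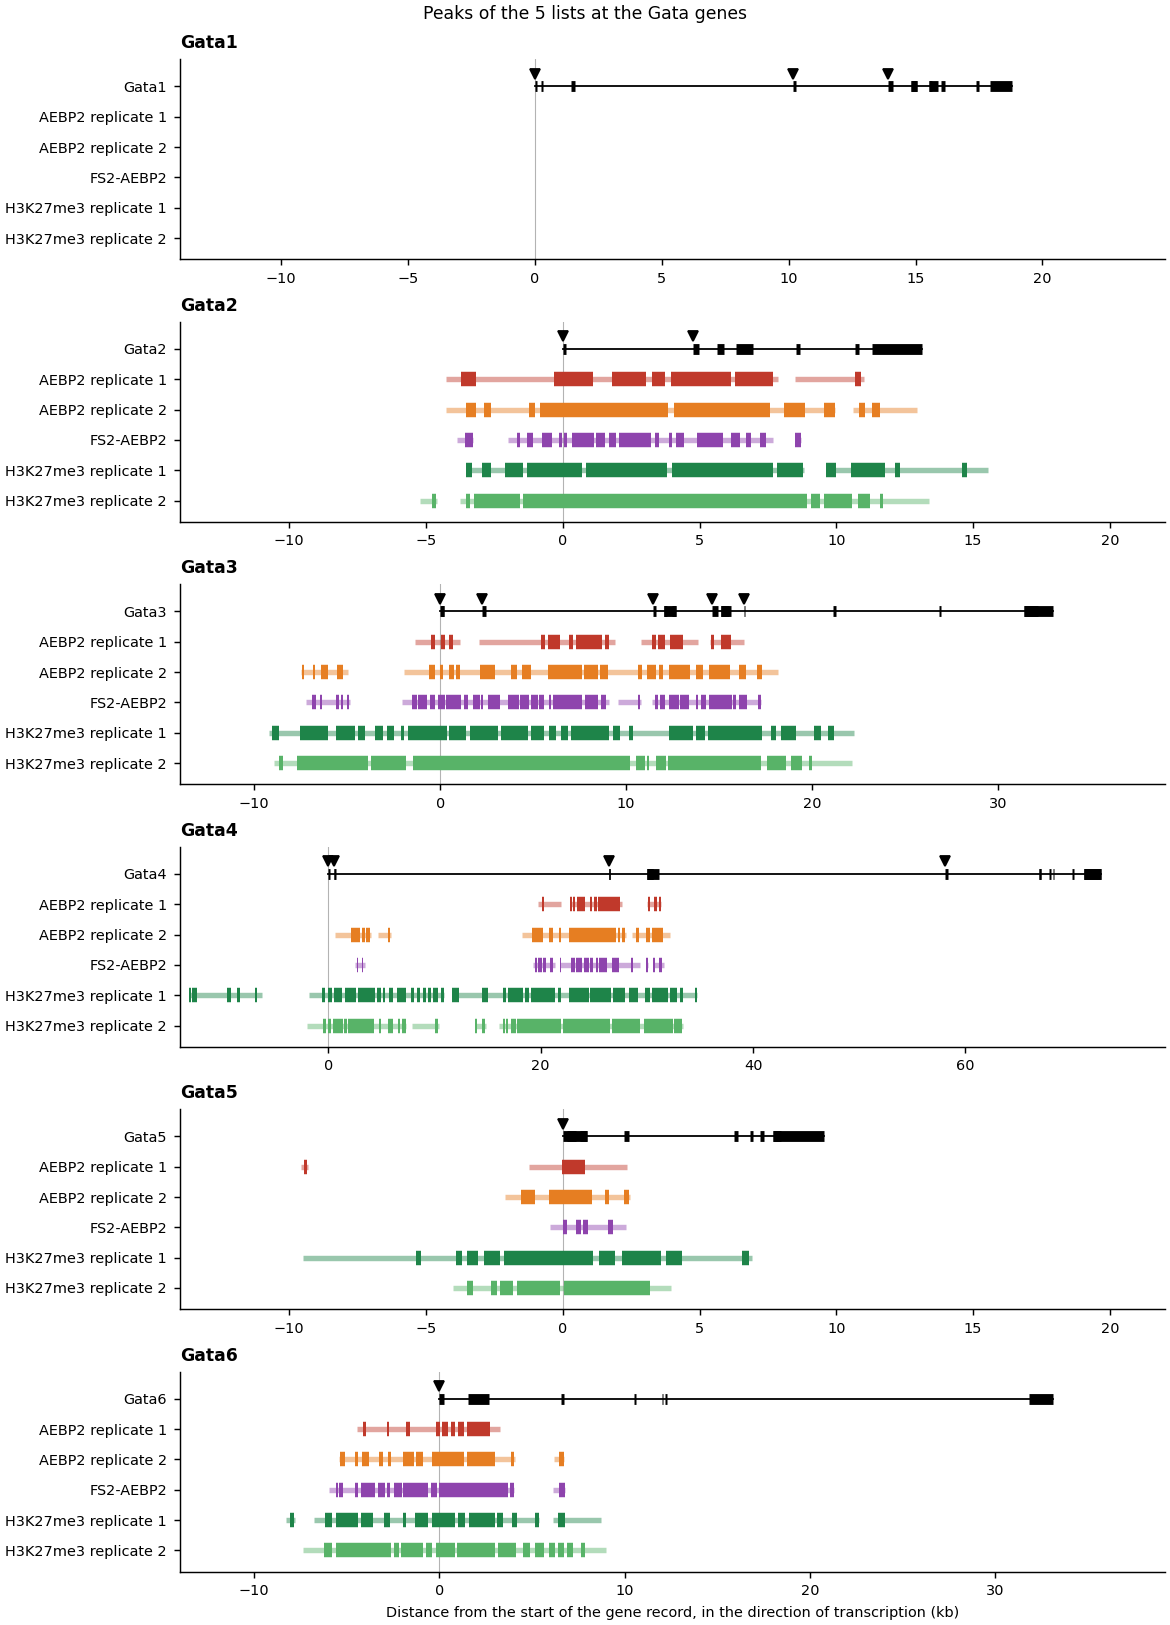
Peaks of the 5 lists at the 6 Gata genes, against the distance from the start of the gene record in the direction of transcription (kb). Black boxes are exons and black triangles are promoters, pale bars are peaks and dark bars the narrower blocks that the lists give inside each peak. Gata1 has no peak, Gata2 is covered over most of its length, and in Gata4 the bars of all 5 lists meet over the inner promoter and on both sides of it, but not at the outer promoters.

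Gata2, the progenitor cell factor, was covered by peaks over most of its length in each list. A single peak per list spanned both of its promoters, which lie 4773 bp apart. That peak measured 12155 bp and 14215 bp for AEBP2, 9693 bp for the tagged protein, and 12360 bp and 17150 bp for H3K27me3, so AEBP2 and H3K27me3 lengths overlapped. The scores were 17 and 31 for AEBP2, 41 for FS2-AEBP2, and 36 and 20 for H3K27me3, with ranks of 88.3%, 94.0%, 92.3%, 99.1% and 89.6%. In AEBP2 the upstream edges of the replicates differed by 28 bp and the downstream edges by 2088 bp. In H3K27me3 they differed by 210 bp and 4580 bp. Peaks covered 79.2% and 93.4% of the gene in AEBP2, 60.4% in FS2-AEBP2, and 93.9% and 100% in H3K27me3, the highest share of any Gata gene in each list.

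Gata3, the T cell and trophoblast factor, had the longest H3K27me3 peaks of the family. Replicate 1 had a peak of 31460 bp and replicate 2 a peak of 31069 bp, with edges only 135 bp and 256 bp apart, and both ran from 9194 bp and 8938 bp upstream of the gene record start to 22265 bp and 22130 bp inside the gene. They had scores of 30 and 28 and ranks of 97.7% and 97.1%. The replicates of AEBP2 differed in how they divided the same stretch. Replicate 1 had 4 peaks in the gene, the longest of 7331 bp, and replicate 2 had 1 peak of 20145 bp. All base pairs of the AEBP2 and FS2-AEBP2 peaks at Gata3 lay inside the H3K27me3 peaks of both replicates.

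The scores of AEBP2 and FS2-AEBP2 at Gata3 differed between start sites. At the gene record start, AEBP2 replicate 1 had a peak of 2422 bp with a score of 3, which ranked above 7.47% of its list. At the start of Gata3-001, 11434 bp further in, it had a peak of 3040 bp with a score of 11 and a rank of 72.5%. In FS2-AEBP2 the score was 46 at the outer start, a rank of 93.7%, and 73 at that of Gata3-001, a rank of 98.1%. In AEBP2 replicate 2 a single peak covered both, with a score of 19 and a rank of 85.1%. The blocks inside the H3K27me3 peaks, stretches set apart within them by a criterion not given in the sources used here, filled 93.7% and 100% of the window around the outer start. Around the start of Gata3-001 they filled 6.65% and 67.2%. In AEBP2 the blocks filled 32.9% and 45.4% around the outer start and 33.2% and 52.8% around that of Gata3-001. In FS2-AEBP2 they filled 80.8% and 36.8%. The block share was thus lower at the Gata3-001 start in FS2-AEBP2 and both H3K27me3 replicates, and higher there in the AEBP2 replicates, by little in replicate 1.

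Gata4, the heart and endoderm factor, had different marks at its outer and inner promoters. At the inner promoter, from which 3 transcripts including Gata4-001 start, all 5 lists had a peak. It was 4957 bp and 9775 bp long in AEBP2, 7592 bp for the tagged protein, and 23085 bp and 17389 bp for H3K27me3, and both H3K27me3 peaks were longer than the other 3. The scores were 12 and 24, 27, and 25 and 27, and the ranks 77.2%, 89.9%, 84.8%, 95.5% and 96.4% in that order of lists. At the gene record start, H3K27me3 had peaks of 12770 bp and 9348 bp that contained the start site and filled the whole window, with ranks of 81.6% and 80.2%. AEBP2 replicate 1 and FS2-AEBP2 had no peak in that window. AEBP2 replicate 2 had a peak of 3436 bp that began 598 bp downstream of the start and covered 20.1% of the window.

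FS2-AEBP2 had a small peak of 904 bp in an intron near the outer start of Gata4, outside the window, with a score of 6. It lay at chr14:63887106-63888009, inside the AEBP2 replicate 2 peak at chr14:63886496-63889931, which covers 2 CpG-island-like regions in full. The FS2-AEBP2 peak covers 100% of the region further from the start and 6.19% of the nearer. AEBP2 replicate 1 had no peak there. The innermost promoter, that of Gata4-003, lies 58085 bp inside the gene and had no peak in any list. Over the gene, AEBP2 covered 11.5% and 24.8%, FS2-AEBP2 16.2%, and H3K27me3 46.7% and 38.8%.

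Gata5, a heart and endoderm factor with 1 promoter, had the shortest peaks of the family in all 5 lists but H3K27me3 replicate 1, when the longest peak at any start of each occupied gene was taken. They were 3573 bp and 4573 bp long in AEBP2, 2776 bp for the tagged protein, and 16441 bp and 7971 bp for H3K27me3. The AEBP2 peaks were short but high in rank. Their scores of 21 and 36 and ranks of 92.8% and 95.9% were the highest of the Gata genes in both replicates. FS2-AEBP2 had a score of 15 and a rank of 69.3%, the lowest of the 5 occupied genes. The H3K27me3 replicates disagreed most at this gene, with a score of 41 and a rank of 99.6% in replicate 1 and a score of 12 and a rank of 71.6% in replicate 2. Their peaks within 50 kb of the gene shared 32.1% of the base pairs that either covered, against 48.2% over the genome and 58.4% to 98.8% at the other 4 genes. At the start itself, the replicate 2 peak lay wholly inside that of replicate 1 and was 0.485 times as long. The 50 kb span also took in separate peaks upstream. These were of 965 bp and 1757 bp in replicate 1 only, and parts of peaks of 16149 bp in replicate 1 and 5235 bp in replicate 2.

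Gata6, the primitive endoderm factor, had peaks on both sides of its single start site. In the 3 AEBP2 lists they reached 4452 bp, 5438 bp and 5929 bp upstream and 3278 bp, 4092 bp and 4012 bp downstream (replicates 1 and 2, then the tagged protein). In H3K27me3 they reached 6780 bp and 7380 bp upstream and 5359 bp and 8973 bp downstream, past all AEBP2 edges. The scores were 17 and 23 for AEBP2, 68 for FS2-AEBP2, and 16 and 19 for H3K27me3. The ranks were 88.3%, 89.4%, 97.5%, 88.0% and 88.0%, with FS2-AEBP2 highest. A second, small region 6373 to 6892 bp inside the gene, a CpG-island-like region, had peaks in each list except AEBP2 replicate 1. The noncoding gene 1010001N08Rik, which overlaps the start of Gata6 on the opposite strand, shares these peaks, and the lists cannot assign them to a strand.

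**Figure D3:**
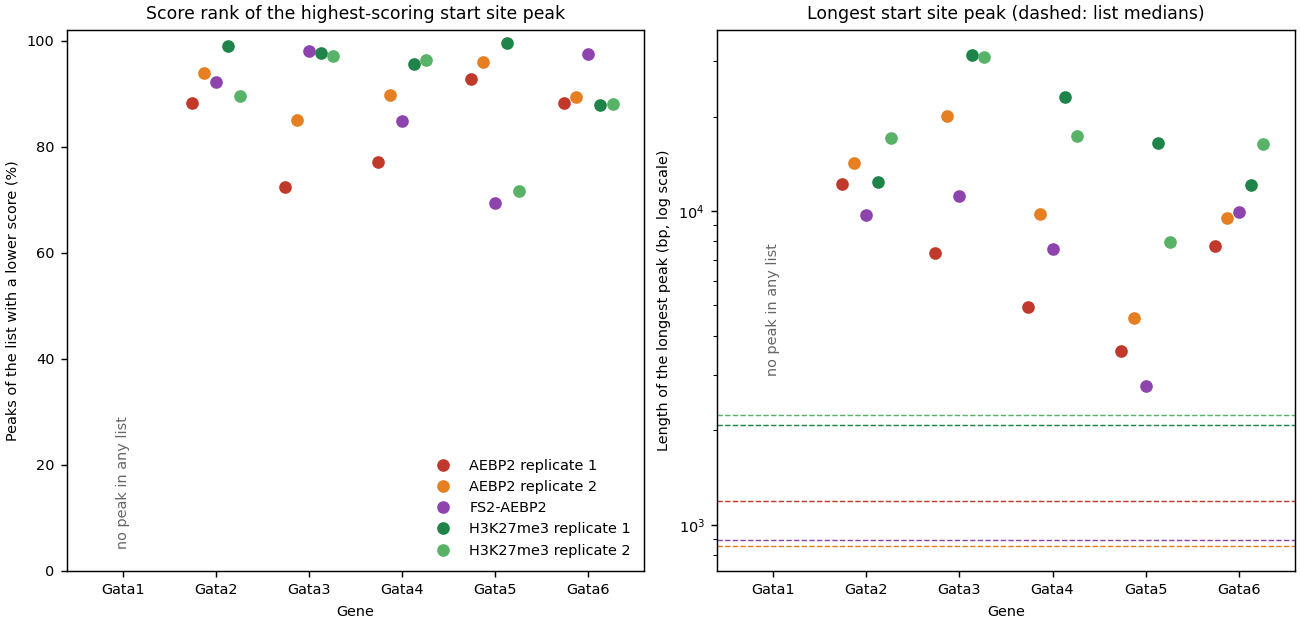
Score rank of the highest-scoring start site peak (left, percent of the peaks of its list with a lower score) and length of the longest start site peak (right, bp on a log axis) for each Gata gene, 1 point for each list, with dashed lines at the median peak length of each list. All points of Gata2 to Gata6 lie above their list's median length, and the ranks of Gata5 spread from 69.3% to 99.6%.

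The order of the genes by rank differed between targets. Taking the highest-scoring peak at any start, the AEBP2 ranks were 94.4% ± 2.2 for Gata5, 91.1% ± 4.0 for Gata2, 88.8% ± 0.76 for Gata6, 83.5% ± 9.0 for Gata4 and 78.8% ± 8.9 for Gata3 (SD, n = 2). The replicate values of each gene overlapped those of its neighbour in this order. Those of Gata5 were above both values of Gata6, Gata4 and Gata3. The H3K27me3 ranks were 97.4% ± 0.40 for Gata3, 96.0% ± 0.59 for Gata4, 94.3% ± 6.7 for Gata2, 88.0% ± 0.046 for Gata6 and 85.6% ± 19.8 for Gata5 (SD, n = 2). Both values of Gata3 lay above those of Gata4, both Gata2 values lay above those of Gata6, and the values of Gata5 enclosed those of all the others. In FS2-AEBP2 the order was Gata3, Gata6, Gata2, Gata4 and Gata5, with no replicate to compare it with. Gata3 was lowest in AEBP2 and highest in FS2-AEBP2, and Gata5 the reverse.

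Against the peaks at the starts of all protein-coding genes that had one, the peaks of the Gata genes were long. Over those genes, the median length for AEBP2 was 1243 bp in replicate 1 and 874 bp in replicate 2, that for FS2-AEBP2 was 1333.5 bp, and those for H3K27me3 were 4757 bp and 3877.5 bp. The 5 occupied Gata genes lay above these medians in every list. Lengths past the 90th percentile were found for 3 and 5 Gata genes in the AEBP2 replicates, 3 in FS2-AEBP2, and 3 and 4 in the H3K27me3 replicates. Gata3 was among them in all 5 lists. The median rank over all such genes was 47.2%, 51.9%, 57.5%, 79.4% and 71.6% in the same order of lists. The 5 Gata genes were above it in the first 4 lists, and 4 of them in H3K27me3 replicate 2, where the rank of Gata5 was the same as the median.

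**Figure D4:**
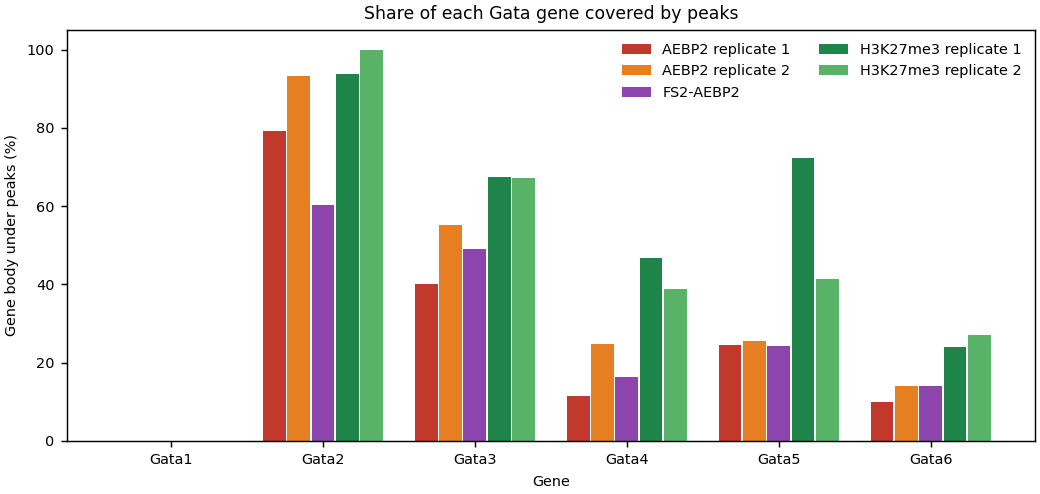
Percent of the base pairs of each Gata gene, from its outermost start to its end, that lie under peaks of each list. Bars start at 0, each list is 1 sample, and both H3K27me3 replicates cover more than both AEBP2 replicates at all 5 occupied genes, among which Gata2 is the most and Gata6 the least covered in each list.

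AEBP2 lay mostly within H3K27me3 at the Gata genes, with exceptions at Gata2, Gata4 and Gata5. Upstream of Gata2 the AEBP2 peaks over the gene record start reached 4287 bp and 4259 bp. Those of H3K27me3 reached 3541 bp and 3751 bp, and replicate 2 had a separate peak of 641 bp further upstream. Downstream, the AEBP2 replicate 2 peak reached 9955 bp, against 8818 bp and 13398 bp in H3K27me3. A 330 bp peak of AEBP2 replicate 2 past the end of Gata4, with a rank of 89.4%, overlapped no H3K27me3 peak. A 233 bp peak of AEBP2 replicate 1 upstream of Gata5 lay outside H3K27me3 replicate 2 and partly outside replicate 1. Within each gene and 50 kb on either side, between 89.5% and 100% of the base pairs of an AEBP2 or FS2-AEBP2 list were under peaks of an H3K27me3 replicate. Over the genome these shares were 91.7% and 91.6% for AEBP2 replicate 1, 79.5% and 77.2% for replicate 2, and 95.3% and 94.8% for FS2-AEBP2. In the other direction, AEBP2 replicate 1 covered 46.4% and 73.9% of the base pairs of the H3K27me3 replicates at Gata2, 46.4% and 47.0% at Gata3, and 50.9% and 47.3% at Gata6. It covered 18.6% and 27.7% at Gata4 and 13.3% and 39.4% at Gata5. Over the genome it covered 10.8% and 16.2%. AEBP2 replicate 2 covered more at each gene, with 53.0% and 83.6% at Gata2, 72.1% and 73.0% at Gata3, and 66.3% and 61.6% at Gata6. It covered 40.0% and 59.5% at Gata4 and 16.2% and 50.4% at Gata5, against 18.0% and 26.3% over the genome.

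The AEBP2 replicates shared 81.3% of the base pairs that either covered at Gata2, 64.4% at Gata3, 45.7% at Gata4, 74.3% at Gata5 and 76.8% at Gata6, against 45.9% over the genome. FS2-AEBP2 lay within AEBP2 replicate 2 for 94.5% to 100% of its base pairs at these genes, against 88.4% over the genome. Within AEBP2 replicate 1 the share was 100% at Gata2 and Gata5, 73.1% at Gata6, 66.6% at Gata3 and 63.4% at Gata4, against 71.0% over the genome.

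Most neighbouring genes that do not overlap a Gata gene had no peak at their start, as was the case for most protein-coding genes in each list. Genes that overlap a Gata gene shared its peaks in all 5 lists, namely Gm13256, 4930412O13Rik and 9230102O04Rik at Gata3, Gm14318 at Gata5 and 1010001N08Rik at Gata6. The nearest flanking genes Rpn1 of Gata2, Neil2 and Blk of Gata4, BC066135 of Gata5, and Mib1 and Rbbp8 of Gata6 had no peak within 1 kb of their start. They lie from 5381 bp (Neil2) to 706152 bp (Rbbp8) from the Gata gene, so they do not show where its peaks end. Dnajb8, a chaperone gene whose start lies 28377 bp from that of Gata2, had a peak there in H3K27me3 replicate 1 only. Taf3, which encodes a subunit of a general transcription factor and lies 24518 bp from Gata3, had peaks in both AEBP2 replicates and in no other list. B230312C02Rik, a noncoding gene 35792 bp from Gata5, had peaks in both H3K27me3 replicates and AEBP2 replicate 2.

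Genes that work with GATA factors were examined in 4 gene lists. Of the 45 genes, 18 had a peak in all 5 peak lists at the gene record start, against 4.57% of all protein-coding genes. No test was made between the gene lists. Of the 15 heart and endoderm genes, 12 did, among them Nkx2-5, a cardiac homeobox gene, Hand2, a heart and limb factor, and Foxa2 and Sox17, endoderm factors. Foxa2 ranked at 96.6% and 96.8% in AEBP2, 97.1% in FS2-AEBP2, and 98.4% and 99.5% in H3K27me3, above Gata4 and Gata6 in each list but FS2-AEBP2, where Gata6 was higher. Mef2c and Hnf4a had no peak at that start, and Foxa3 had one in H3K27me3 replicate 1.

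Of the 10 blood genes, only Tal1, a blood stem cell factor, had peaks in all 5 lists at the gene record start, with ranks from 86.5% to 99.3%. Klf1, the red cell factor, had a peak in AEBP2 replicate 2 alone, and Nfe2 had none. Lmo2 and Runx1 had no peak at the gene record start but had peaks in all 5 lists at another annotated start, which made 3 of 10, against 5.02% of all protein-coding genes by that count. Lyl1, a blood factor related to Tal1, had peaks in AEBP2 replicate 2 and both H3K27me3 replicates, with ranks of 93.5%, 99.1% and 98.6%. Cbfa2t3 had peaks in 4 lists, at another start only. With any annotated start, single lists marked between 3 of the 10 blood genes, in FS2-AEBP2, and 7, in AEBP2 replicate 2 and H3K27me3 replicate 1. The shares over all protein-coding genes were 7.15%, 24.0% and 18.5% in these 3 lists. Of the 9 trophoblast and T cell genes, Cdx2, Tfap2a, Tfap2c and Tbx21 had peaks in all 5 lists. The T helper cytokine genes Il4 and Il5 had none, and Il13 had peaks in 3 lists. Of the 11 genes for GATA-type zinc finger proteins and cofactors, Zfpm1, which encodes the blood cofactor FOG1, had peaks in all 5 lists and Zfpm2, its heart counterpart, in each list except AEBP2 replicate 1. Gatad2a, Mta1, Mta2 and Rere had a peak at the gene record start in AEBP2 replicate 2 only, and the other 5 had none. That list had a peak there at 22.3% of all protein-coding genes.

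**Figure D5:**
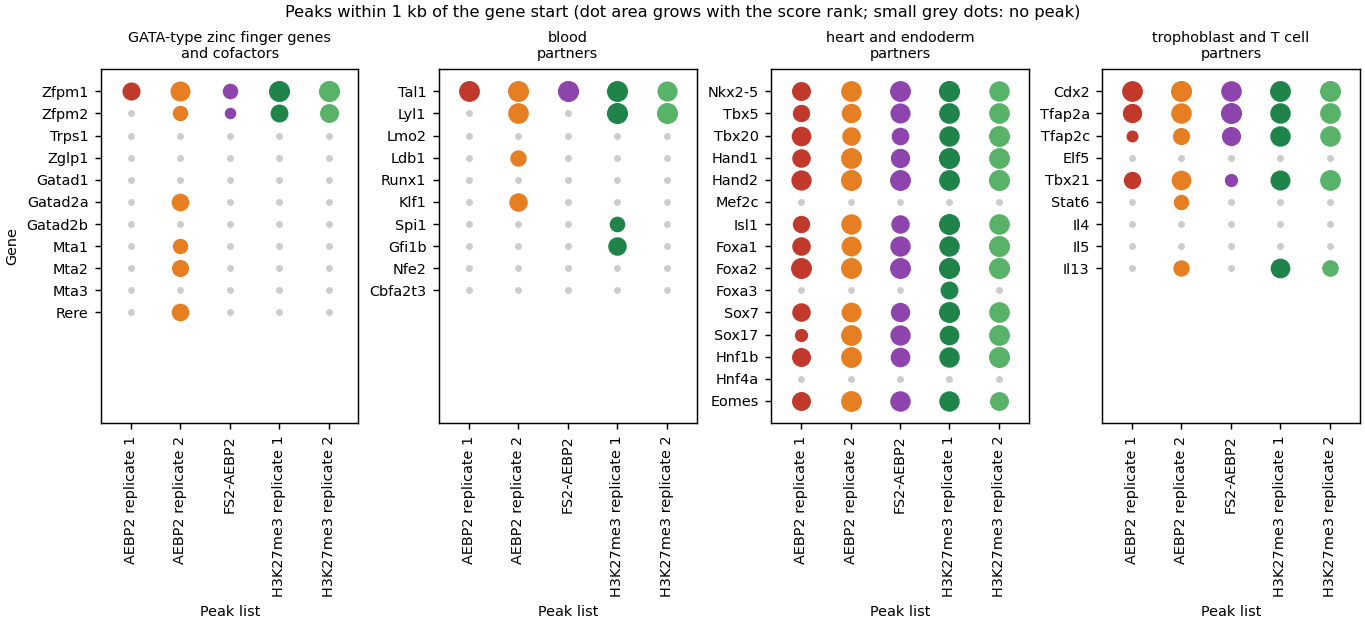
Peaks within 1 kb of the gene record start of 45 partner genes of the GATA factors, in 4 panels, with genes as rows and the 5 lists as columns. A coloured dot is a peak, with an area that grows with its score rank, and a small grey dot is no peak. Rows are full for 12 of 15 heart and endoderm genes and for 1 of 10 blood genes.

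By the 5 score ranks at the gene record start, with 0 where there was no peak, the genes on other chromosomes nearest to Gata2 were C1ql2, En2, a homeobox gene, and Sp5, a zinc finger gene, at distances of 2.77, 4.50 and 5.77 percentage points. Those nearest to Gata6 were Dmrt3, Hmga2 and Npr3, at 5.13, 5.14 and 6.90. The distances were larger for Gata5, with Col2a1, Fam19a2 and Kcnd3 at 13.2, 13.5 and 13.7. They were also larger for Gata3, with Rnf150, Fam20c and Nt5e at 14.9, 16.1 and 16.9. Gata3 entered with its outer start, where its rank in AEBP2 replicate 1 was 7.47%. Such distances over other genes are not given, so how unusual these are was not tested. The nearest to Gata4 were Nrp2, Parp8 and Ntn4, at 5.85, 7.50 and 8.01. Like Gata4 at that start, they ranked at 74.6% or more in AEBP2 replicate 2 and H3K27me3 and at 0 in FS2-AEBP2. For H3K27me3 this is near the median of genes with a peak at any start, 79.4% and 71.6% in the replicates. The measure is a likeness over 5 lists.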

How the data were processed

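Peak lists of 5 wild-type ESC samples were analysed, AEBP2 (2 replicates), H3K27me3 (2 replicates) and FS2-AEBP2 (1 sample). SUZ12, the inputs and the AEBP2 KO samples were not analysed here. Per the submitters' processing notes, the authors used Bowtie, SAMtools, Picard and MACS2 2.0.10.2 with mm9. The notes give no role or order for these tools, and thresholds, duplicate removal and the control library are not given in the sources used here. The authors deposited, for each peak called in each sample, its edges, a whole-number score and the number of blocks inside it. Blocks of 1 bp at peak edges were treated as padding. Peak numbers and edges depend on depth, which is unknown, so scores were used only as ranks within a list.

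Only peaks on the autosomes, X and Y entered. A promoter spanned 1 kb to each side of the start of the GENCODE vM1 gene record, with every annotated transcript start, 2.5 kb windows, a window coverage of 50%, peaks with at least the median score, joined peaks and single replicates as alternatives. Of the partner genes, 3 were matched through older symbols. The genes named are the Gata genes, the partner lists, the neighbouring or overlapping genes and the 3 genes with the most alike ranks. The members and lists were chosen with earlier results of these data known. Sequences were read from mm9. Scripts were tested on simulated data. Analyses used Python 3.11.15, numpy 2.4.6, pysam 0.24.0, matplotlib 3.10.9 and samtools 1.23.1.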

Additional observations from a re-analysis of the deposited data

How the results depend on the processing

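The sample titles number AEBP2 and H3K27 alike by replicate, but no paired analysis was made. No result comes from a test, and the numbering of the H3K27me3 replicates is uncertain. The replicate numbers serve only to name the lists. Among the Gata genes, all 5 lists marked 4 at the gene record start, 5 at any annotated start, and 3 with only peaks at or above the median score of their list, since the peak of AEBP2 replicate 1 at the outer start of Gata3 had a score of 3. Both AEBP2 replicates marked 18 of the 45 partner genes, and single replicates marked 18 to 28. Over all protein-coding genes both AEBP2 replicates marked 1888, single replicates 2032 to 4983, peaks at or above the median score 1058, and peaks over 50% of the window 860. All 5 lists marked 1023 genes, 576 with peaks at or above the median score and 542 with 50% of the window. Counts based on both AEBP2 replicates are thus set by replicate 1, the smaller list. The other alternatives for these counts stayed within 1.5 times of the values reported. Single-list counts over all protein-coding genes also fell with the median score and with 50% of the window. AEBP2 replicate 1 fell from 2032 to 1152 and 933, replicate 2 from 4983 to 3009 and 1944, and FS2-AEBP2 from 1460 to 882 and 654. Those of the H3K27me3 replicates stayed within 1.5 times. For AEBP2 and H3K27me3 at single Gata genes, other definitions of the peak, rank or region moved the mean by less than the SD of the replicates in 15 of 18 cases for peak length, 10 of 18 for score rank and 13 of 20 for the share of the gene covered. With 2 replicates, leaving either out cannot move a mean by more than that SD, so those values are not counted. The SD is wide where the replicates disagree, so these counts do not give the size of a shift. Ranked among promoter peaks only, the mean H3K27me3 rank at the gene record start fell from 80.9% to 59.3% at Gata4 and from 88.0% to 72.8% at Gata6. It fell by less at the other occupied genes. The AEBP2 peak at the gene record start of Gata3 was 2422 bp and 20145 bp in the replicates, and its rank 7.47% and 85.1%. FS2-AEBP2 has no replicate, and its values have no error. The unknown depth limits what the absence of a peak shows.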
